A study of Homo sapiens with 22 samples.

Results

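The oligosaccharyltransferase subunits are the proteins that attach N-linked glycans to newly made proteins in the endoplasmic reticulum (ER), and their mRNAs were followed here in human HEK293T cells depleted of ZNF598. RPN1 was singled out beforehand from these libraries, because its labelled mRNA was lower and was lost faster in the knockdown than in the control. The question was whether that pattern extended to 9 other subunits of the same enzyme, RPN2, DDOST, STT3A, STT3B, DAD1, OSTC, TMEM258, MAGT1 and TUSC3. Each gene was represented by 1 row, its protein-coding transcript with the highest mean count over the 0 to 10 h libraries. All 10 genes were found among the 19570 genes with a protein-coding row, and their transcripts filled 80 of the 227264 rows. The difference between shZNF598 and shControl is therefore a description for RPN1, given without a test, and was tested for the 9 partners only.

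The study applied BRIC-Seq, in which RNA is labelled with 5-bromouridine (BrU), the label is chased and the RNA still carrying it is recovered with an antibody and sequenced. HEK293T is an immortalised line from human embryonic kidney. The cells expressed an shRNA against ZNF598 (shZNF598) or a control shRNA (shControl), were exposed to 150 µM BrU for 24 h and were collected at the start of the chase and 2, 4, 6, 10 and 24 h into it, so every library shared the same labelling. Which hairpins were used and whether the lines were clones is not given in the sources used here. The 22 libraries formed 12 groups, with 2 replicates per group from 0 to 10 h and 1 library per shRNA at 24 h. The labels do not say that replicates were separate cultures, so that p-values measure the spread between these libraries, which may be technical. The libraries of 0 to 10 h held 52352359 to 96963584 assigned counts.

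The ZNF598 transcript was lower in shZNF598 at every chase time. ZNF598, a ubiquitin ligase that recognises collided ribosomes, lay between 4.05 and 8.55 CPM (the count scaled to the library's size) in the shControl libraries of 0 to 10 h and between 0.419 and 1.07 CPM in the shZNF598 libraries, a log2 difference of −3.05 ± 0.087 (SE) averaged over the 5 chase times. At 24 h, with 1 library each, the distance was smaller, the shControl library lying at 4.90 CPM and the shZNF598 library at 2.41 CPM. Of 4 genes associated with HEK293T cells, NEFL, LIN28B and NEFM were above 1 CPM on average in at least 1 shRNA and PAX2 was at 0.091 CPM at most. Among 9 markers of blood, liver, fibroblast and endothelial cells, CD3E and HBB had 0 counts in every library. The fibroblast markers were highest, with COL1A1 at 1.05 CPM on average in shControl and 0.955 CPM in shZNF598. COL3A1 was at 0.636 and 0.421 CPM. The summed level of the 9 was 1.11 to 2.67 CPM in shControl and 0.881 to 2.28 CPM in shZNF598. Levels are library values of a bulk culture, in which fewer cells of a type and less RNA per cell cannot be told apart.

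Oligosaccharyltransferase is a membrane complex next to the protein-conducting channel of the ER. STT3A and STT3B are its alternative catalytic subunits, the former acting mainly while a protein is still being translocated and the latter also afterwards. RPN1 (ribophorin I), RPN2 (ribophorin II), DDOST, DAD1 and TMEM258 belong to the shared core of both forms. OSTC is an accessory subunit of the STT3A form, and MAGT1 and TUSC3 are alternative thioredoxin-like subunits of the STT3B form. The subunits are encoded by separate genes and act together in the same enzyme.

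The rows used lay on 8 chromosomes of hg38. The RPN1 transcript ENST00000296255.8 spans chr3:128619969-128650818 on the minus strand. STT3A (ENST00000392708.9) spans chr11:125592852-125623091 and STT3B (ENST00000295770.4) chr3:31532925-31637616, both on the plus strand. MAGT1 (ENST00000358075.10) spans chrX:77826364-77895593 on the minus strand. Its coordinates and sequence are those of version 11 of this transcript, to which the counted row was matched in GENCODE 44. These 4 transcripts are those on which the results below turn. The study considered the net charge of nascent peptides at sites of ribosome stalling within zinc finger domains. Lysine and arginine carry positive charge, and only their codons are counted here. Acidic residues are left out, so the measure differs from that of the study. The stretch of 10 codons richest in lysine and arginine codons, the first where several tied, is shown for each of the 4. It runs 5′ to 3′ on the coding strand from GENCODE 44, with the lysine and arginine codons in capitals.
RPN1: gaagtaCGTgaaaccAAAattAAGggtAAA
STT3A: ataagtCGTccagacAAGAAGagcAAGAAG
STT3B: ttgtcaAAGAAGactaccAAAAGGAAGCGT
MAGT1: AGAAAGAAGgagatggtgttatctgaaAAG

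The RPN1 stretch, codons 99 to 108 of 607, held 4 such codons, and 86.0% of 18945 coding genes had a stretch with at least that many. The STT3A stretch at codons 435 to 444 held 5 and the STT3B stretch at codons 797 to 806 held 6, reached by 52.9% and 22.6% of genes, while that of MAGT1 at codons 31 to 40 held 4. RPN1 was thus below the median gene, which had 5, and lay within the range of its partners, from 2 (DAD1) to 6 (STT3B and TUSC3). Lysine and arginine made up 11.4% of RPN1 codons against 11.3% in the median gene and 5.31% (DAD1) to 12.4% (TUSC3) in the partners. The 3′ UTR of the RPN1 transcript was 442 bases long, against a median of 1021 bases, and contained no ATTTA on the transcript strand, a pentamer present in the 3′ UTR of 66.4% of genes. STT3A and MAGT1 each had 9 copies of it, STT3B had 4, and DDOST, OSTC and TMEM258 had none. These counts are descriptions of sequence and were related to no measurement here.

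RPN1 moved in opposite directions under the 2 shRNAs during the chase. In shControl its level was 118.7 and 139.9 CPM at 0 h, 143.0 and 141.3 CPM at 2 h, 178.6 and 182.1 CPM at 4 h, 237.4 and 274.2 CPM at 6 h and 369.7 and 402.7 CPM at 10 h. In shZNF598 it was 59.0 and 58.1 CPM at 0 h, 51.7 and 48.1 CPM at 2 h, 39.9 and 41.9 CPM at 4 h, 39.8 and 39.1 CPM at 6 h and 30.2 and 31.2 CPM at 10 h. Every shZNF598 library thus lay below every shControl library of any of these times, and the distance widened. The difference on the log2 scale was −1.14 ± 0.099 (SE) at 0 h, −1.51 at 2 h, −2.14 at 4 h, −2.70 at 6 h and −3.65 ± 0.11 at 10 h. This corresponds to a level 2.21-fold lower at the end of labelling and 12.6-fold lower after 10 h. Because CPM is a share of the labelled RNA that remains, a value can rise during the chase where an mRNA is lost more slowly than the bulk.

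The slope of log2 CPM on chase hours states this in 1 value, with 0 standing for loss at the rate of the bulk. The RPN1 slope was 0.167 per h (95% interval 0.145 to 0.188) in shControl and −0.0907 per h (−0.113 to −0.0684) in shZNF598, a difference of −0.258 ± 0.015 (SE) per h. The 3 lowest differences among the 79513 tested transcripts were all RPN1 rows. RPN1 had been selected on these 2 contrasts, so these values describe its size only. All 8 tested transcript rows of RPN1 were alike, with slope differences from −0.259 to −0.240 per h and 10 h level differences from −3.66 to −3.48. These rows overlap on the genome, the 2 most abundant averaging 124.0 and 109.0 CPM, and cannot be taken as separate measurements.

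**Figure D1:**
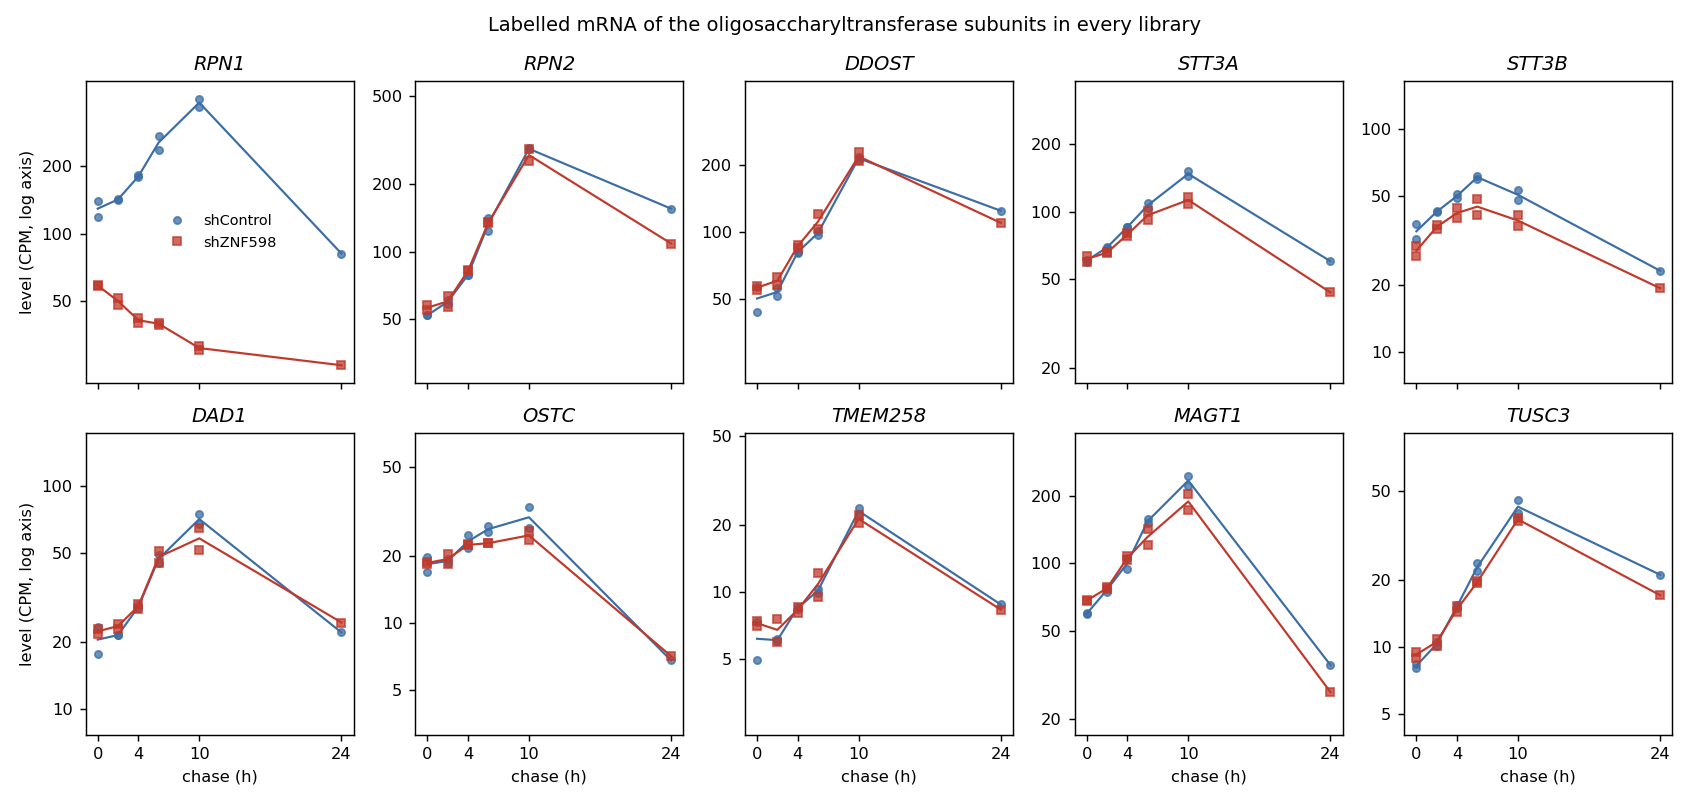
Level (CPM, log axis; every panel spans the same fold range) of each of the 10 subunits against hours of chase, with blue circles for shControl libraries, red squares for shZNF598 libraries and lines through the means (2 libraries per point from 0 to 10 h, 1 at 24 h). RPN1 separates from 118.7 to 139.9 against 58.1 to 59.0 CPM at 0 h to 369.7 to 402.7 against 30.2 to 31.2 CPM at 10 h, whereas the curves of the 9 partners run close together.

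Relative to the bulk, the partners had slopes above 0 in both cell populations. In shControl all 9 had a slope above 0 that passed the test (edgeR quasi-likelihood test, adjusted p below 0.05, as in all tests that follow), where 33.5% of all tested transcripts were called higher. Their slopes ran from 0.0593 per h (STT3B) to 0.258 per h (RPN2), with a median of 0.198, and the RPN1 slope of 0.167 lay among them. In shZNF598, 8 of 9 were called higher, against 32.7% of all transcripts, and their slopes ran from 0.0423 per h (STT3B, adjusted p = 0.0599) to 0.240 per h (RPN2). No partner turned to a negative slope as RPN1 did. With the 24 h libraries added, 3 of 9 in shControl and 0 of 9 in shZNF598 were called, and all 10 levels at 24 h were below those at 10 h.

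The slope difference between shZNF598 and shControl did not pass the test for any of the 9 partners, where 0.116% of all tested transcripts were called. In the same test 4 of the 9 had an unadjusted p below 0.05, a count for which no share of all transcripts was taken. The DESeq2 Wald test called 519 of all transcripts, where edgeR called 92. It called 2 of the 9, STT3A (−0.0410 per h, adjusted p = 0.0112) and MAGT1 (−0.0545 per h, adjusted p = 0.0371). All 9 differences were negative, from −0.0123 per h (DDOST) to −0.0522 per h (MAGT1), with a median of −0.0333. Over all tested transcripts the median was 0.0008 and 48.8% were negative. Among the 23757 transcripts whose mean slope lay within that of the partners (0.0508 to 0.249 per h) the median was −0.0112 and 66.8% were negative, so that a negative sign was more frequent among transcripts as stable as these. Among the alternatives run, the sign changed only for STT3B without replicate 2 of shZNF598 at 10 h, which gave 0.00414 per h.

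The partners' differences were several-fold smaller than that of RPN1. MAGT1 stood at −0.0522 ± 0.0156 (SE) per h (95% interval −0.0847 to −0.0197, adjusted p = 0.372). The difference of STT3A was −0.0386 ± 0.0124 per h (−0.0644 to −0.0128, adjusted p = 0.463). RPN2, the other ribophorin, differed by −0.0177 ± 0.0218 per h and DDOST by −0.0123 ± 0.0201 per h. TUSC3, OSTC, DAD1, TMEM258 and STT3B lay between −0.0169 and −0.0399 per h. The lowest bound of any partner's 95% interval was −0.0928 per h (TMEM258), and the RPN1 interval ran from −0.289 to −0.227 per h. RPN1 was selected on this contrast, so the distance between the intervals is a description and not a test. The 70 tested transcript rows of the partners, among them the rows used, all had a negative slope difference and none was called. Of all tested transcripts 48.8% were negative and 0.116% were called. Rows of a gene overlap on the genome, so the 70 repeat the result of the rows used and are not separate measurements.

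**Figure D2:**
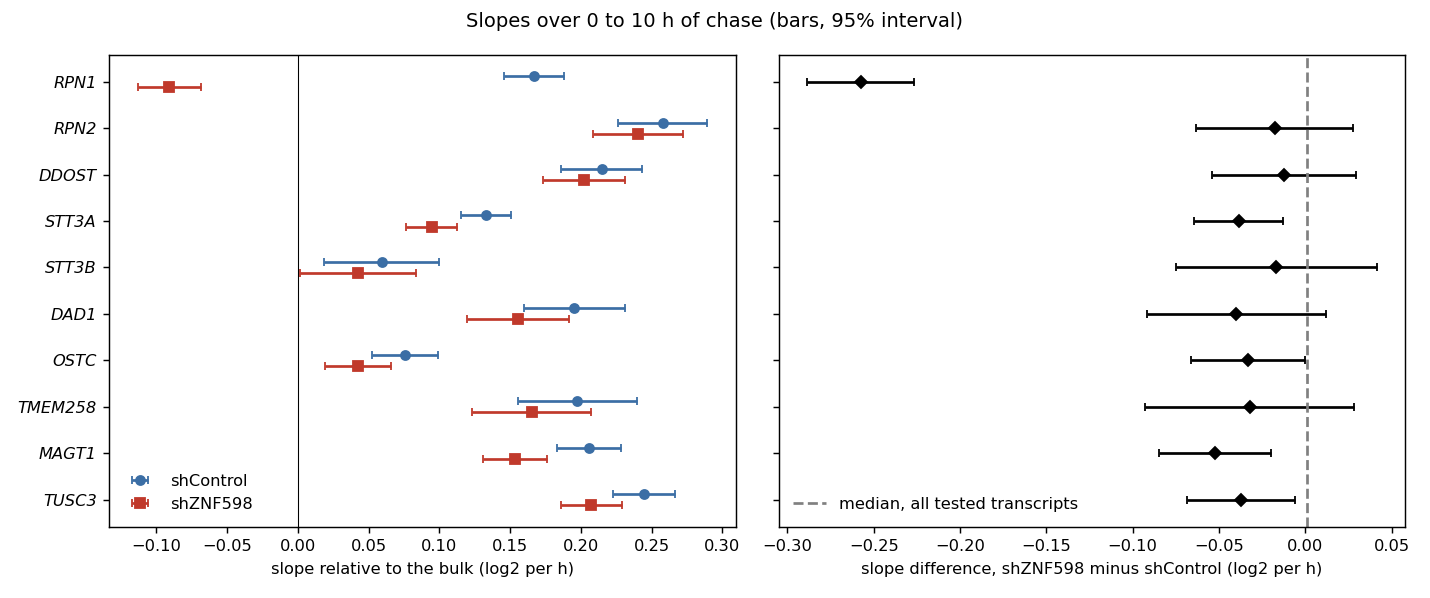
Left, slope of log2 level over 0 to 10 h of chase relative to the bulk (log2 per h) in shControl (blue circles) and shZNF598 (red squares); right, the difference of shZNF598 minus shControl (black), with bars for 95% intervals from 20 libraries and a dashed line at the median of all tested transcripts, 0.0008. RPN1 sits at −0.258 per h and the 9 partners between −0.0522 and −0.0123 per h.

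At the end of labelling (0 h) none of the 9 partners was called between the shRNAs, where 0.407% of all transcripts were, 1 had an unadjusted p below 0.05 and the DESeq2 Wald test called 0. RPN2 was at 51.8 and 51.9 CPM in shControl and 54.6 and 57.5 CPM in shZNF598, a log2 difference of 0.11 ± 0.095 (SE, 95% interval −0.086 to 0.31). STT3B, the partner with the lowest value, was at 37.7 and 32.04 CPM against 27.1 and 29.9 CPM, a difference of −0.29 ± 0.11 (adjusted p = 0.350). The other 7 differed by 0.018 (OSTC) to 0.23 (TMEM258), and the median of the 9 was 0.12. That median rested on replicate 1 of shControl, in which DDOST (43.9 CPM against 56.8 in replicate 2), DAD1 (17.7 against 23.3) and TMEM258 (5.0 against 7.4) were low. Without this library the median was −0.012. The 2 shControl libraries of 0 h also differed most among the 10 replicate pairs, with a chi-square per degree of freedom of 18.8 against 2.31 to 12.6 in the others.

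At 2 h and at 4 h the 9 partners again gave no call, against 0.746% and 1.4% of all transcripts, with 1 unadjusted p below 0.05 at each time and no call by the DESeq2 Wald test. Their median log2 difference was 0.029 at 2 h and −0.027 at 4 h. It was −0.15 at 6 h and −0.27 at 10 h, while the median of all transcripts was 0.027 and 0.024. At 10 h, 8 of 9 partners had both shZNF598 libraries below both shControl libraries, a separation seen in 21.3% of all transcripts, and DDOST was the exception. Level differences were not compared with those of transcripts as stable as the partners, of which 66.8% had a negative slope difference. The size of this shift depended on replicate 2 of shControl at 10 h, without which the median of the partners was −0.10.

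STT3A and STT3B, the 2 catalytic subunits, were the partners that passed a test of level. STT3A was at 143.6 and 151.3 CPM in shControl and 116.7 and 108.6 CPM in shZNF598 at 10 h. The groups did not overlap, and the log2 difference of −0.39 ± 0.089 (SE) passed the test (adjusted p = 0.0127), where 2.43% of all transcripts were called lower at 10 h. At 0 h the same transcript had been at 60.8 and 59.7 CPM against 59.6 and 62.9 CPM, which overlapped. At 2, 4 and 6 h both shZNF598 libraries lay below both shControl libraries, with differences of −0.077, −0.11 and −0.15 that were not called. The call at 10 h was lost without replicate 2 of shControl (−0.35, adjusted p = 0.169) and without replicate 2 of shZNF598 (−0.34, adjusted p = 0.146), fits in which a single library is assumed to vary like the other groups.

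STT3B was lower in shZNF598 with no overlap of libraries at any chase time from 0 to 10 h. Such a separation was seen in 15.1% of all transcripts at 0 h, 22% at 2 h, 24.1% at 4 h, 19.5% at 6 h and 21.3% at 10 h. The share separated in this direction at all these times together was not taken. Its levels were 42.8 and 42.4 CPM against 35.7 and 37.2 CPM at 2 h, 51.2 and 49.1 CPM against 44.3 and 39.8 CPM at 4 h, 61.9 and 59.9 CPM against 48.8 and 41.1 CPM at 6 h and 48.0 and 53.5 CPM against 41.2 and 36.6 CPM at 10 h. Its level was highest at 6 h in both populations, whereas RPN2, DDOST and MAGT1 were highest at 10 h. Its difference was called at 6 h (−0.44 ± 0.11, adjusted p = 0.0282, with 1.57% of all transcripts called lower) and not at 10 h (−0.38 ± 0.11, adjusted p = 0.0549). The 6 h call was lost without either shControl library or without replicate 2 of shZNF598 (adjusted p of 0.136 to 0.252), and STT3B was called at 10 h by the DESeq2 Wald test (adjusted p = 0.0127), with DESeq2 size factors (0.039), with 1 row per gene (0.0433) and with replicate number as a block (0.0443).

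Averaged over the 5 chase times, STT3B fell by 0.32 on the log2 scale in shZNF598 (SE 0.049, adjusted p = 4.3e-05) and STT3A fell by 0.14 (SE 0.040, adjusted p = 0.0135), where 10.1% of all transcripts were called lower and 12.3% higher. The other 7 were not called. In either direction 22.4% of all transcripts were called, so the number of calls in the mean does not set the partners apart from other transcripts. DDOST was at 0.12 ± 0.049 (adjusted p = 0.0705), OSTC at −0.096 ± 0.051 and TMEM258 at 0.068 ± 0.066, and RPN2, DAD1, MAGT1 and TUSC3 were between −0.051 and 0.022. The RPN1 difference on the same scale was −2.23 ± 0.046. Without the filter on low levels STT3A was no longer called (−0.13, adjusted p = 0.0628). The slope test of the same 2 genes did not pass.

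**Figure D3:**
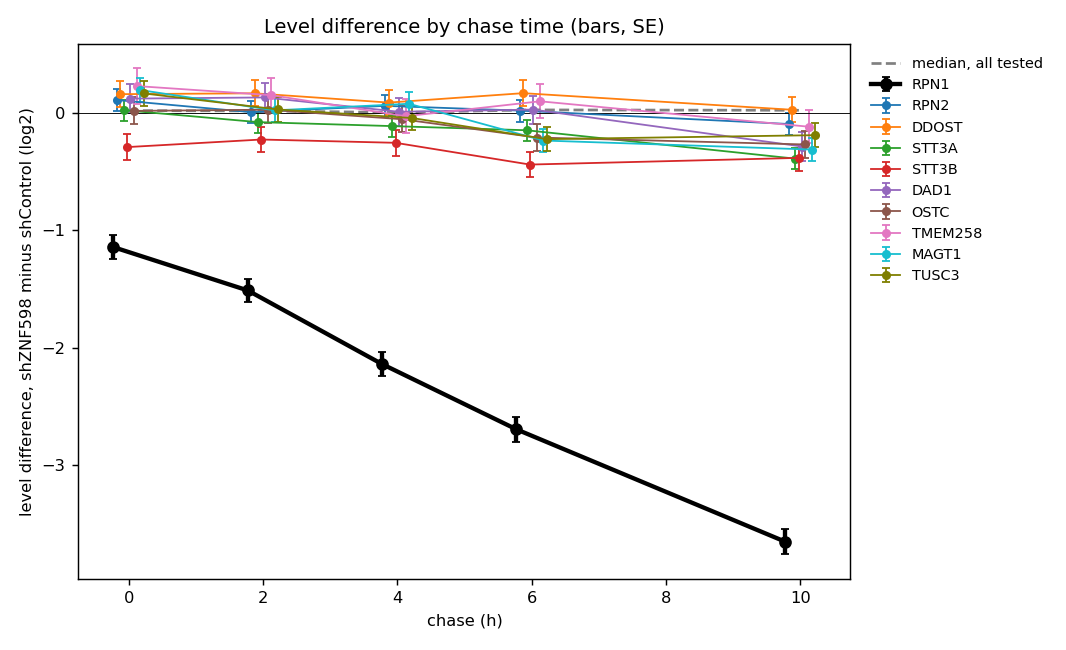
Log2 level difference of shZNF598 minus shControl (y axis) at 0, 2, 4, 6 and 10 h of chase (x axis, points shifted slightly for legibility) for the 10 subunits, with SE bars and a grey dashed line for the median of all tested transcripts. RPN1 (black) goes from −1.14 to −3.65, while the partners stay between −0.44 and 0.23.

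The other transcript rows of STT3A and STT3B behaved like those used. They overlap with those rows on the genome and cannot be taken as separate measurements. For STT3A, 10 of 17 tested rows were called lower at 10 h and 11 of 17 in the mean, with the row used counted in both. The 10 h differences ran from −0.47 to −0.34. Of all transcripts 2.43% were called lower at 10 h and 10.1% in the mean. The rows with its largest slope differences were ENST00000526364.1 (−0.0617 per h, adjusted p = 0.264) and ENST00000531599.1, a retained intron form (−0.0577 per h, adjusted p = 0.243). For STT3B, 1 of 7 rows was called at 10 h and 7 of 7 in the mean, the row used being among the 7. Its largest slope differences were −0.0296 per h (ENST00000463044.1) and −0.0248 per h (ENST00000488151.1). No row of the 7 other partners was called at 10 h or in the mean. Among these, 10 h differences ran from −0.35 (MAGT1) to 0.11 (DDOST).

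**Figure D4:**
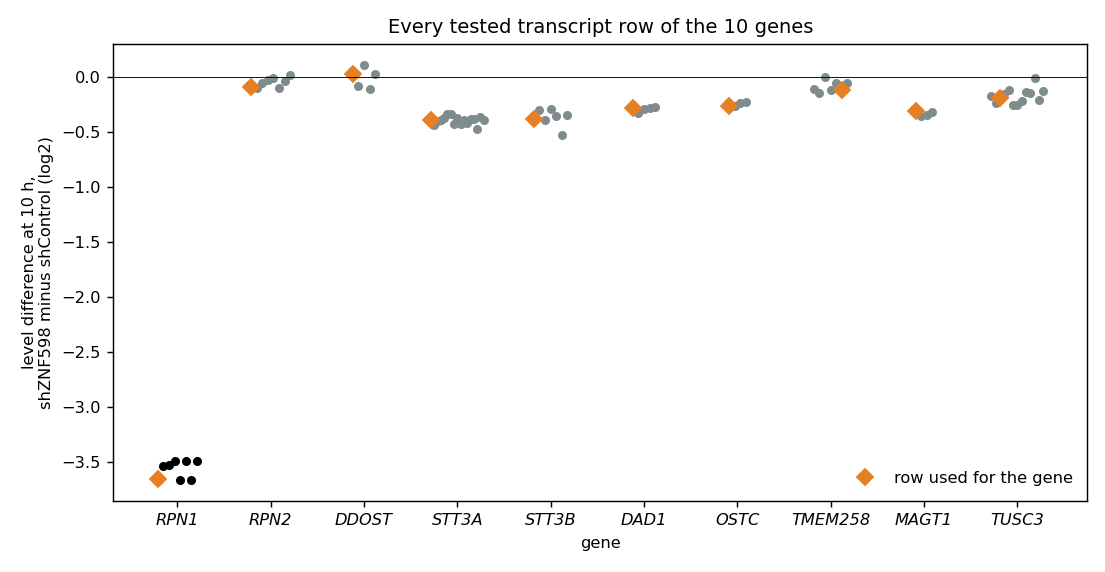
Log2 level difference at 10 h, shZNF598 minus shControl (y axis), for each of the 78 tested transcript rows by gene (x axis), with an orange diamond for the row used. The 8 RPN1 rows lie between −3.66 and −3.48 and the 70 rows of the partners between −0.53 and 0.11.

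MAGT1 and TUSC3, the thioredoxin-like subunits, shared a crossing pattern. MAGT1 was at 59.1 and 59.9 CPM in shControl and 68.2 and 68.1 CPM in shZNF598 at 0 h, and at 223.1 and 247.1 CPM against 205.2 and 173.7 CPM at 10 h. Both knockdown libraries were thus above both control libraries at the start and below them at the end, with log2 differences of 0.20 ± 0.10 and −0.31 ± 0.10, neither of them called (adjusted p = 0.528 and 0.095). TUSC3 went from 8.1 and 8.4 CPM against 9.0 and 9.5 CPM to 39.6 and 45.4 CPM against 36.9 and 37.8 CPM. RPN2 crossed in the same way, with 287.9 and 289.8 CPM against 287.5 and 253.9 CPM at 10 h. Of all tested transcripts 3.17% crossed in this direction without overlap.

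Within a library, the ratio of RPN1 to its partners does not depend on scaling. Per kb of transcript, RPN1 was 4.74 and 5.03 times the geometric mean of the 9 partners in shControl at 0 h and 4.55 and 4.53 times at 10 h, while against single partners the control ratio moved both ways. It was 5.67 and 7.85 at 0 h and 13.8 and 13.5 at 10 h against STT3B, and 23.8 and 27.0 at 0 h and 15.1 and 14.4 at 10 h against TUSC3. In shZNF598 the ratio was 2.12 and 2.05 at 0 h, 1.66 and 1.62 at 2 h, 1.03 and 1.08 at 4 h, 0.806 and 0.767 at 6 h and 0.397 and 0.448 at 10 h. In shZNF598 the 2 libraries of each time lay below those of the time before. Against RPN2 alone the mean ratio was lower at 10 h than at 0 h in shControl too, with 1.30 against 2.43, and in shZNF598 it was 0.111 against 1.02. These ratios include RPN1's own selected difference and carry no test.

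**Figure D5:**
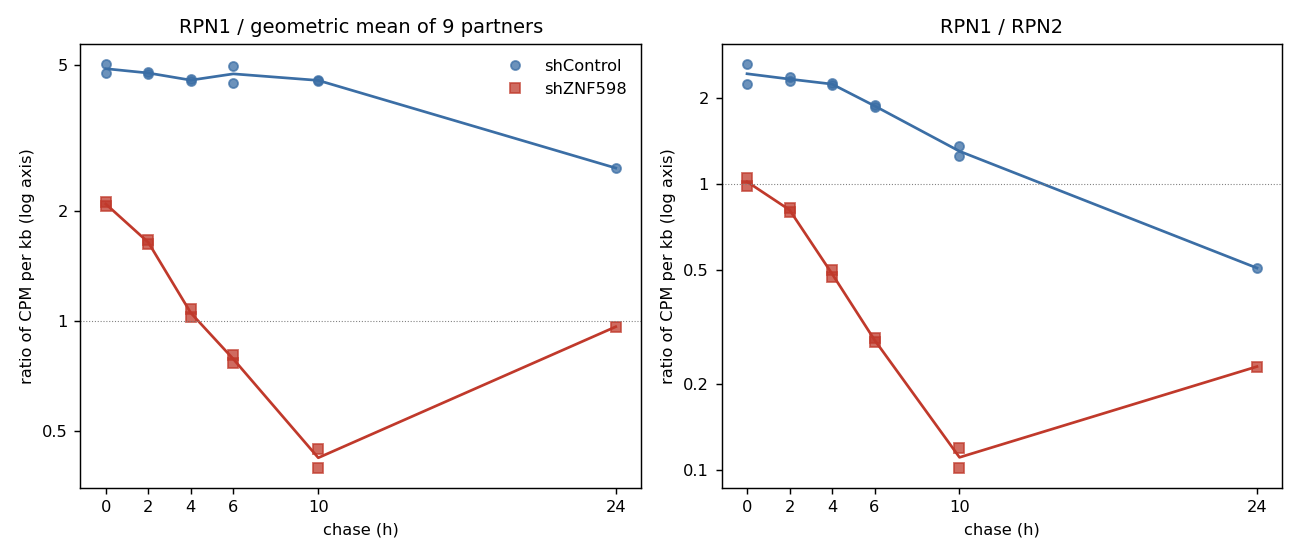
Ratio of RPN1 to the geometric mean of its 9 partners (left) and to RPN2 (right), each as CPM per kb within a library (log axes), against hours of chase, with circles for shControl, squares for shZNF598 and lines through means. The left ratio is 4.48 to 5.03 in all shControl libraries up to 10 h and drops from 2.05 to 2.12 at 0 h to 0.397 to 0.448 at 10 h in shZNF598.

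The place of RPN1 in the order of levels per kb also differed between the shRNAs. In shControl RPN1 was the highest of the 10 at 0 h (56.6 ± 6.6 CPM per kb, SD, n = 2) and at 10 h (169.2 ± 10.2). DAD1, DDOST and RPN2 came next at 0 h with 30.0, 23.7 and 23.3 CPM per kb, neighbours whose ranges of 1 SD to either side overlapped. TUSC3 was last with 2.23 ± 0.057. In shZNF598 RPN1 had rank 3 at 0 h (25.6 ± 0.26), its range of 1 SD overlapping those of DDOST (26.5 ± 0.78) and RPN2 (25.2 ± 0.93), and rank 7 at 10 h (13.4 ± 0.33), next to TMEM258 (12.5 ± 0.80). RPN2 was then first with 121.6 ± 10.7 CPM per kb. The transcript chosen sets the length used here, which for TMEM258 was a 1692-base form.

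At 24 h, with 1 library per shRNA and no test, RPN1 was at 81.3 CPM in shControl and 25.7 CPM in shZNF598. RPN2 was at 155.7 and 108.7 CPM, DDOST at 124.4 and 109.8 CPM, and STT3A at 59.9 and 43.4 CPM. STT3B was at 23.2 and 19.4 CPM, MAGT1 at 35.0 and 26.5 CPM, and TUSC3 at 21.1 and 17.1 CPM. DAD1 (22.1 and 24.5 CPM), OSTC (6.8 and 7.1 CPM) and TMEM258 (8.8 and 8.3 CPM) were closer together. The ratio of RPN1 to the geometric mean of the partners was 2.61 in shControl and 0.963 in shZNF598.

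The window rule of the study for half-lives gave a reliable value (R2 above 0.9 and a half-life between 0 and 24 h) for RPN1 in shZNF598 alone. It was 8.62 h from the 0 to 4 h window and 12.5 h from a fixed 0 to 10 h window. For the 9 partners in both populations, and for RPN1 in shControl, the fitted slope in the retained window was positive, so that no half-life relative to the bulk exists. No external standard was applied, and the absolute loss of these mRNAs was not measured here.

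The genes whose level over the 20 libraries ran most like RPN1, out of 6795 with at least 5 CPM on average, were RTN3 (Pearson r of log2 CPM 0.979), TAPBP (0.974), AK3 (0.971), FBXO9 (0.968) and SAP18 (0.962). These libraries share labelling and chase times, and the correlations are a description. The RPN1 values include the shRNA difference for which it was selected, so genes without such a difference rank low in any case. RTN3, an ER-shaping reticulon, was at 35.0 CPM in shControl and 19.6 CPM in shZNF598 at 0 h, and at 68.4 and 9.72 CPM at 10 h. AK3, a mitochondrial adenylate kinase, was at 6.85 and 3.32 CPM at 0 h and at 12.95 and 1.42 CPM at 10 h. The partners had lower correlations. STT3B was the closest with r = 0.562 (rank 163) and OSTC came next with 0.378 (rank 463), while RPN2 had 0.119 (rank 1861) and DDOST 0.049 (rank 2504).

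Around the complex, 49 further genes of N-glycosylation and protein entry into the ER were examined, and all 49 were tested. They comprised 3 other subunits or partners of oligosaccharyltransferase (OST4, KRTCAP2 and MLEC) and 24 genes of dolichol-linked oligosaccharide assembly. The rest were 12 genes of glycan trimming and the calnexin cycle and 10 of the ER translocon. No slope difference was called by edgeR or by the DESeq2 Wald test and no unadjusted p was below 0.05. Over all transcripts edgeR called 0.116%, a share at which 49 genes would be likely to give no call. Their median slope difference was −0.0052 per h, with 30 of 49 negative, where the median of all transcripts was 0.0008 and 48.8% were negative. The smallest p-values belonged to ALG8 (−0.0295 ± 0.0157 per h), a glucosyltransferase of oligosaccharide assembly, UGGT2 (−0.0377 ± 0.0204 per h), a folding sensor, and SEC61G (−0.0476 ± 0.0264 per h), a translocon subunit, with adjusted p from 0.968 to 0.984.

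At 0 h none of the 49 was called by either tool, where edgeR called 0.407% of all transcripts. Among the 49, 8 had an unadjusted p below 0.05. The smallest belonged to DPM2, a subunit of dolichol-phosphate mannose synthase (−0.62 ± 0.17, adjusted p = 0.112), DPAGT1, the enzyme of the first step of oligosaccharide assembly (−0.46 ± 0.14, adjusted p = 0.202), and MOGS, the first trimming glucosidase (−0.42 ± 0.14, adjusted p = 0.276). In the mean over the chase 9 fell and 3 rose, or 12 of 49, against 22.4% of all transcripts. DPAGT1 fell by 0.35, DPM2 by 0.42, DHDDS by 0.41, MOGS by 0.36 and ALG6 by 0.22. CALR, a chaperone of the calnexin cycle, fell by 0.23, MLEC by 0.19, SEC61A1, the channel subunit, by 0.18 and UGGT1 by 0.14. ALG2 rose by 0.29, EDEM1 by 0.22 and PRKCSH by 0.20. Of the 49, ALG2 alone was also called at 10 h (0.66, adjusted p = 0.0341, edgeR). At that time 2.43% of all transcripts were called lower, and the share called higher is not given here, so this single call has no matching background.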

How the data were processed

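BrU-labelled RNA was sequenced in 22 libraries with a stranded kit after removal of ribosomal RNA. The authors kept uniquely mapped reads (STAR 2.7.0a, hg38; the submitters' processing notes also name CASAVA 1.8) and deposited counts per GENCODE 32 transcript from featureCounts. The authors rescaled their fold changes to spike-in RNA; the deposited counts carry no such factor and none was applied here. Transcript IDs were matched to GENCODE 44 (92.2% with version, 98.3% in all), and unmatched rows held 2.22% of the counts. The authors' other column, the transcript length in codons, gave CPM per kb.

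Counts were scaled by TMM and tested with edgeR 4.0.16 (glmQLFit, glmQLFTest) over the 79513 transcripts that averaged 1 CPM or more in the libraries of 0 to 10 h (20), which share 1 estimate of the spread. The slope model held shRNA, hours and their product, and the level model 1 mean per group. Benjamini-Hochberg adjustment ran over all transcripts tested, with a threshold of 0.05, and intervals are 95%. The 24 h levels were scaled with the other 20. DESeq2 1.42.0 served as alternative and for half-lives. Likeness used log2(CPM + 0.5). Genes were named by a rule: all subunits, the target, pathway genes that were called at 0 h or in the slope (or else the 3 with the smallest p in each test) and the 5 genes most like RPN1, and for called subunits the 2 other rows with the largest slope difference. Pathway genes called in the mean were named after their values were seen.

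Members, lists and tests were chosen with earlier results of these data known. On simulated data with 200 changed transcripts of 79513, 84.5% of slope differences of 0.15 per h and 67.5% of 0 h differences of 1 log2 unit were recovered, with 6 and 3 false calls. Counts of replicates differed beyond sampling noise, with a chi-square per degree of freedom of 2.31 to 18.8, so none was a duplicate. The rows used held at least 349 counts in each library of 0 to 10 h.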

Additional observations from a re-analysis of the deposited data

Results flagged for a closer look

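For 3 partners every shZNF598 library lay above every shControl library at 0 h and below at 10 h, so the level difference turned from higher to lower. From 0 h to 10 h the log2 difference changed by −0.204 for RPN2, by −0.507 for MAGT1 and by −0.356 for TUSC3. The change between these 2 times was not tested itself, and the slope test over 5 times was not passed by any of the 3 (adjusted p = 1 for RPN2, 0.372 for MAGT1 and 0.757 for TUSC3, edgeR). The pattern occurred in 2519 of 79513 transcripts, or 3.17%.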

How the results depend on the processing

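Groups held 2 libraries, slopes were relative to the bulk, transcript rows overlapped and the 24 h libraries had no replicates. Recovery of slope differences as small as those of the partners was not simulated. The share of all transcripts with an unadjusted p below 0.05 was not taken, so counts of such p-values have no background. Settings at 2 to 10 h and within each shRNA were chosen after seeing the data.

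The number of partners called for slope was 0 under all alternatives except the DESeq2 Wald test (2), and 0 at 0 h under all. In the mean it was 2, and 1 without the filter; leaving out 1 library gave 2 to 3. At 10 h it was 1, and 2 with DESeq2 size factors, with 1 row per gene and with the replicate block, 3 with the DESeq2 Wald test, and 0 to 2 when a library was left out (0 without replicate 2 of shControl or of shZNF598 at 10 h). At 6 h it was 1, and 0 to 1 when a library was left out. Within shControl 9 were called and 3 over 0 to 24 h. Within shZNF598 8 were called and 0 over 0 to 24 h.

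The partners' median at 0 h was −0.0121 to 0.194 over the fits that left out a library, and at 10 h −0.359 to −0.104. Their median slope in shControl was 0.191 to 0.215 over those fits, and 0.173 over 0 to 6 h, 0.0515 over 0 to 24 h and 0.217 over 2 to 10 h. In shZNF598 it was 0.0336 over 0 to 24 h. The RPN1 slope difference over 0 to 24 h was −0.0702 per h.

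Signs reversed in values that were not called. At 0 h from the 0 h libraries alone, STT3A was at −0.012 and OSTC at −0.0175. The DAD1 mean with 1 row per gene was −0.00869. Over 0 to 24 h the slopes in shControl were −0.0225 for STT3B and −0.0357 for OSTC. In shZNF598 over 0 to 24 h they were −0.0038 for STT3A, −0.026 for STT3B, −0.0448 for OSTC and −0.00716 for MAGT1. The STT3B and OSTC slopes in shControl had been called over 0 to 10 h, as had those of STT3A, OSTC and MAGT1 in shZNF598. When a library was left out, the ranges were −0.0397 to 0.00414 for the STT3B slope difference. At 0 h they were −0.0121 to 0.358 for DDOST, −0.0156 to 0.0636 for STT3A, −0.0599 to 0.334 for DAD1, −0.0896 to 0.135 for OSTC and −0.0246 to 0.543 for TMEM258. The DAD1 mean ran from −0.0342 to 0.0445. At 6 h RPN2 ran from −0.0698 to 0.117, DAD1 from −0.0621 to 0.115 and TMEM258 from −0.0909 to 0.262. At 10 h DDOST ran from −0.0394 to 0.0929. The causes were not tested.

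Over all transcripts, 92 were called for slope, and 46 without the filter, 10 with 1 row per gene (fewer tested), 22 over 0 to 6 h, 0 over 0 to 24 h, 52 over 2 to 10 h, 519 by the DESeq2 Wald test and 31 to 126 with a library left out. At 0 h 324 were called, and 788 without the filter, 90 with 1 row per gene, 11 from the 0 h libraries alone, 550 by the DESeq2 Wald test and 49 to 1899 with a library left out. In the mean 17808 were called, and 3810 with 1 row per gene.

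Whether replicate numbers pair the samples was unclear, and they were not treated as pairs. The correlation of same-numbered deviations was mixed, at −0.0048 at 0 h, 0.119 at 2 h, 0.35 at 4 h, 0.298 at 6 h and −0.228 at 10 h. With the replicate block 80 transcripts were called for slope and 398 at 0 h, and the partners' median slope difference was −0.0328 per h. STT3B at 10 h was called under the block (−0.385, adjusted p = 0.0443), the only call among the partners that differed.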

Other observations

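The 19 other tested genes that lie within 1 Mb of RPN1 on chromosome 3 were a set chosen after values were seen. They showed no call in slope, at 0 h or at 10 h (edgeR), with 0, 1 and 4 unadjusted p-values below 0.05. Of all transcripts 0.116% were called in slope, 0.407% at 0 h and 2.43% as lower at 10 h. Averaged over the 5 chase times 5 of the 19 were called, where 22.4% of all transcripts were. PODXL2, GATA2 and TMCC1 were higher (0.20 to 0.34 on the log2 scale) and SEC61A1 and RUVBL1 lower (−0.18 and −0.16). The slope differences of the 19 ran from −0.0356 to 0.0533 per h, their 0 h log2 differences from −0.21 to 0.24 and their 10 h differences from −0.36 to 0.48, against −0.258 per h, −1.14 and −3.65 for RPN1.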
